A study of Homo sapiens with 24 samples.

Results

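The aminoacyl tRNA synthetases were followed in 2 human myeloid cell lines treated with OTX or its solvent DMSO, with or without folic acid (FA) in the culture. The members were the genes whose symbol is on a list of 36 cytosolic and mitochondrial synthetases. The list was matched to 23595 genes, and 35 of the 36 symbols were found: 20 cytosolic enzymes and 15 mitochondrial enzymes, whose symbols end in 2. MARS2 was not analysed here. All 35 were expressed well enough to be tested, with a group mean of 1 FPKM or more somewhere in every fit. There were 8 groups of 3 libraries: U937 without FA (-FA) under OTX and under DMSO, U937 with FA (+FA) under OTX and under DMSO, IMS-M2 -FA under OTX and under DMSO, and IMS-M2 +FA under OTX and under DMSO. U937 is a monocytic line and IMS-M2 is an NPM1-mutant acute myeloid leukaemia line, each an established line and so a model of 1 patient's disease. OTX was taken from knowledge of the study to be birabresib (OTX015), an inhibitor of the BET bromodomain proteins, because the labels give the abbreviation only, with no dose or duration. The title of the series names the effect of folic acid deprivation on the transcriptome under OTX as its question.

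Synthetases join each amino acid to its tRNA, so that every protein made in the cell depends on them. Translation on cytosolic ribosomes and translation inside mitochondria mostly use separate enzymes, all encoded in the nucleus. KARS and GARS are exceptions, since each makes a cytosolic and a mitochondrial form from the same gene, and EPRS carries the glutamate and the proline enzyme in a single chain. Several cytosolic enzymes sit together in the multisynthetase complex, held by the scaffold proteins AIMP1, AIMP2 and EEF1E1. When uncharged tRNA accumulates, the kinase GCN2 (EIF2AK4) raises translation of the transcription factor ATF4, which is known to switch on many cytosolic synthetase genes together with ASNS, the asparagine synthetase. Folates carry carbon units for purines, thymidylate and methionine, and mitochondria use a formyl folate to prime their initiator tRNA.

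The values were FPKM, fragments scaled to transcript length and to the size of the library, so each level is per length and relative to the other genes of its library. Summed over all genes a library held 522659 to 644841 FPKM, with 10418 to 10894 genes at 1 FPKM or above. Sequencing depth is unknown because no read counts were used. Libraries of 1 group were alike across genes, which are not independent replicates: the mean Pearson correlation of a library with the others of its group was 0.977 to 0.99 in 23 libraries and 0.972 in column 2 of U937 -FA DMSO, the least alike. The columns of U937 -FA are numbered from 0 and the sample titles from 1, so they were tied to their groups only. The myeloid markers PTPRC, CD33, SPI1, CEBPA, LYZ and CD68 reached 1 FPKM in both lines. Summed epithelial markers stayed at or below 0.00574 FPKM, and HBB reached 10.4 FPKM in IMS-M2 -FA OTX replicate 2, against 0 in the other libraries of that group. HEXIM1, a common readout of BET inhibition, rose under OTX by 2.02 and 1.24 on the log2 scale in U937 without and with FA, and by 2.03 and 2.31 in IMS-M2 without and with FA.

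In level, most cytosolic enzymes stood above the mitochondrial ones. QARS, which charges glutamine tRNA, had the highest mean over the 8 groups at 117 FPKM, followed by the glycine enzyme GARS at 109.5 FPKM and FARSA, the catalytic subunit of the phenylalanine enzyme, at 98.7 FPKM. The lowest cytosolic enzymes were those for arginine, RARS at 42.6 FPKM, histidine, HARS at 30.5 FPKM, and cysteine, CARS at 21.4 FPKM. Among mitochondrial enzymes the isoleucine enzyme IARS2 at 52.6 FPKM, the cysteine enzyme CARS2 at 44.7 FPKM and the valine enzyme VARS2 at 22.3 FPKM led the order. The glutamate enzyme EARS2 at 8.78 FPKM, the phenylalanine enzyme FARS2 at 8.18 FPKM and the proline enzyme PARS2 at 4.38 FPKM closed it. Neighbours in this order often shared their library range: QARS ran from 86.2 to 190.2 FPKM and GARS from 69.4 to 176 FPKM over the 24 libraries. The highest group mean exceeded the lowest by 1.19-fold for RARS, the steadiest cytosolic enzyme, and by 3.38-fold for IARS, the most variable. For mitochondrial enzymes this ratio ran from 1.59-fold for HARS2 to 3.87-fold for YARS2.

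**Figure D1:**
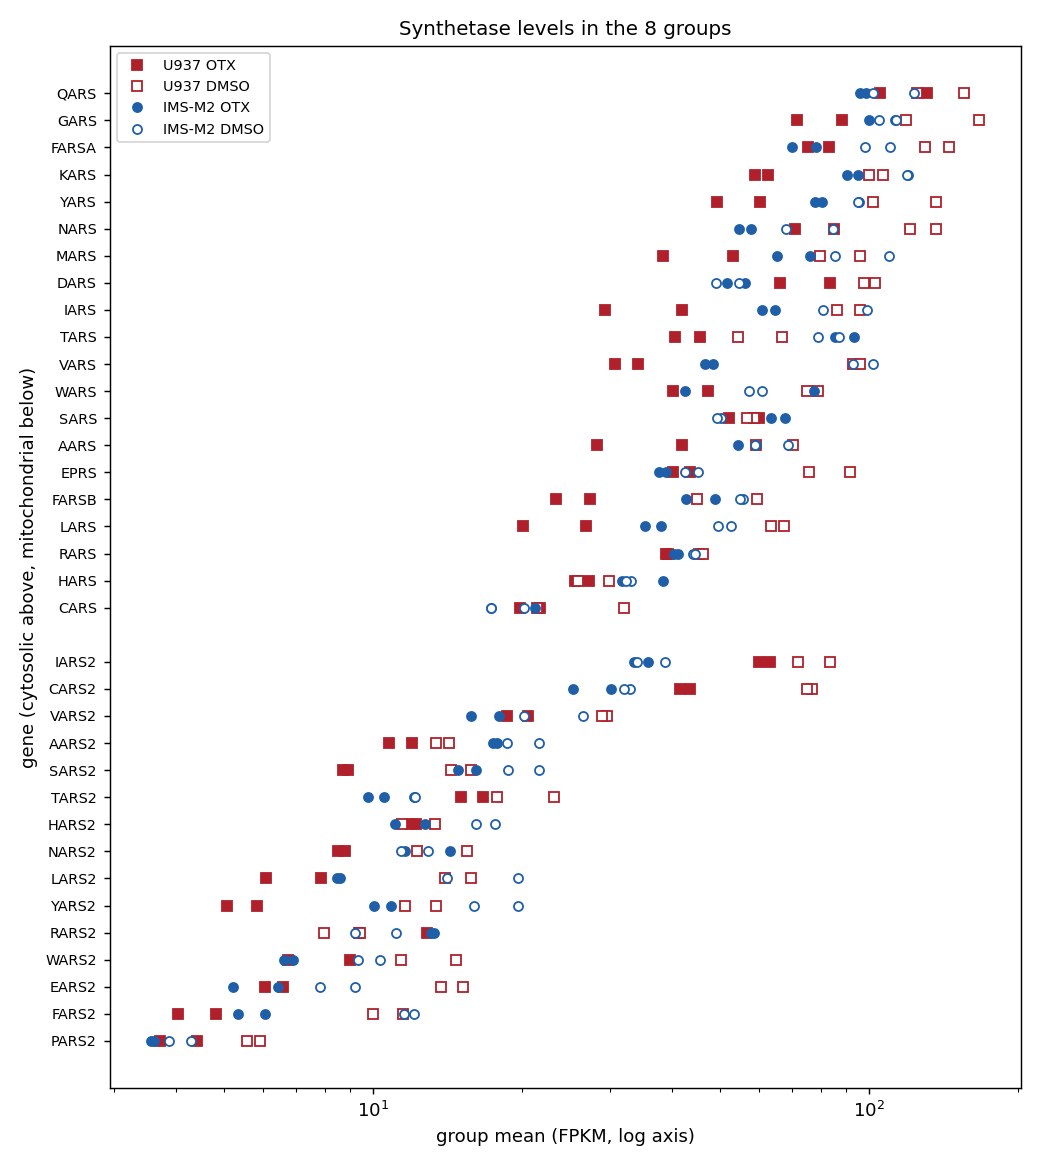
Mean FPKM (log axis) of each synthetase in the 8 groups, with cytosolic genes above mitochondrial genes and each symbol shown for -FA and +FA. Filled squares are U937 OTX, open squares U937 DMSO, filled circles IMS-M2 OTX and open circles IMS-M2 DMSO; for most genes the filled squares lie left of the open ones, and QARS, at a mean of 117 FPKM, heads the list.

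The lowest group mean of 13 of the 20 cytosolic genes was in U937 -FA OTX, and the highest of 10 was in U937 +FA DMSO. The mitochondrial genes were spread more widely, with 5 of 15 lowest in IMS-M2 -FA OTX and 4 in U937 -FA OTX. These orders, like the fold ratios above, cross tables whose shared normalization is not stated. They were not tested, and the same counts over all genes were not made. Setting each amino acid's enzymes side by side, 12 amino acids had 1 cytosolic and 1 mitochondrial gene. In DMSO the cytosolic member was the higher in 11 of the 12 pairs in every table, by a median of 3.51-fold to 4.21-fold. The exception was cysteine. In U937 -FA DMSO, CARS had 23.5, 25.1 and 15.8 FPKM and CARS2 80.0, 88.4 and 61.9 FPKM, with no overlap. In IMS-M2 the means over DMSO libraries without FA were 20.2 ± 0.629 FPKM of CARS and 33.0 ± 3.14 FPKM of CARS2 (SD, n = 3 each). Under OTX the cytosolic member was the higher in 11 of 12 pairs in each IMS-M2 table and 10 of 12 in each U937 table. In U937 under OTX isoleucine was a further exception. Mean IARS was 29.3 FPKM and mean IARS2 60.1 FPKM without FA, and 41.9 and 63.3 FPKM with FA.

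A short stretch of promoter sequence was searched in each gene, because ATF4 binds a composite element whose core is TGATGNAA, and because MYC binds the E-box CACGTG. The windows were RefSeq promoters of GRCh38.p14, 250 bases before to 50 bases from the transcription start, 300 bases in all, and the motifs were read on both strands. Of the 35 genes, 29 had a window (16 cytosolic, 13 mitochondrial), and a gene with several windows counted once. DARS, LARS, VARS, YARS, AARS2 and VARS2 had none. TGATGNAA lay in 7 of 16 cytosolic windows (43.8%) and 1 of 13 mitochondrial windows (7.69%), against 1217 of all 27305 genes in the table (4.46%). All 7 cytosolic genes with a match were among the 10 with a window that are known as ATF4 responsive, and none was among the 6 others. CACGTG lay in 1 of 16 cytosolic windows (IARS, 6.25%) and 2 of 13 mitochondrial windows (CARS2 and EARS2, 15.4%), against 8.77% of all genes, and in no window did the motifs overlap. A match describes letters only. Whether genes came to be known as ATF4 responsive partly through this motif was not examined, so the match to that list is not independent support. The 7 cytosolic sites and the mitochondrial YARS2 site are shown as the matches found among the synthetases, 5′ to 3′ on the gene's strand, with the 8 motif bases in capitals between 11 flanking bases on each side.
AARS, chr16:70289675-70289704 (-), motif from base -187 relative to the start: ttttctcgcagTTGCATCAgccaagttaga
CARS, chr11:3057407-3057436 (-), from base -2: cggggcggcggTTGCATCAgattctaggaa
GARS, chr7:30594834-30594863 (+), from base -33: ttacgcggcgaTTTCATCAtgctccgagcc
IARS, chr9:92293692-92293721 (-), from base -13: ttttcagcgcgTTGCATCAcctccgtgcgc
MARS, chr12:57488053-57488082 (+), from base -4: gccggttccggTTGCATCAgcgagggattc
NARS, chr18:57621804-57621833 (-), from base 15: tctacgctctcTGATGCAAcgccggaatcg
TARS, chr5:33440956-33440985 (+), from base 3: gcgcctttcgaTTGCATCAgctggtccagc
YARS2, chr12:32756076-32756105 (-), from base -197: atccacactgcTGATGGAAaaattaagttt

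OTX lowered most synthetases in U937. In U937 -FA, 16 of 20 cytosolic synthetases fell and none rose, while among mitochondrial ones 12 of 15 fell and 1 rose. In U937 +FA, 15 cytosolic and 11 mitochondrial enzymes fell and none rose. These counts are of genes with a Benjamini-Hochberg adjusted p below 0.05 (called genes) in a limma fit over all genes on log2(FPKM + 1), a scale that understates changes of low genes. Of the 11194 genes tested in U937, 59.8% were called without FA, 28% higher and 31.7% lower. With FA 56.1% were called, 29.1% higher and 27.0% lower. The median log2 change, OTX minus DMSO, was -0.82 for cytosolic, -0.61 for mitochondrial and -0.02 for all genes without FA, and -0.75, -0.48 and 0.02 for the same sets with FA. All 3 OTX libraries lay below all 3 DMSO libraries for 18 cytosolic and 12 mitochondrial genes in U937 -FA, and above them for RARS2, while of all genes there 33.7% lay below and 30.3% above (64.0% in either direction). In U937 +FA they lay below for 16 cytosolic and 11 mitochondrial genes and above for none, while of all genes 30.4% lay below and 32.0% above (62.4% in either direction). In bulk RNA, fewer cells of a type and less RNA per cell cannot be told apart.

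The cytosolic genes that fell furthest charge branched amino acids. VARS, the valine enzyme (hg19 chr6:31745297-31763712), had 34.8, 28.02 and 29.7 FPKM in U937 -FA OTX, against 98.3, 94.1 and 86.2 FPKM in U937 -FA DMSO. With FA it had 37.3, 32.8 and 32.5 FPKM under OTX, against 94.0, 92.3 and 102 FPKM under DMSO. Every OTX library lay far below every DMSO library, and the log2 changes were -1.56 ± 0.0962, adjusted p = 2.27e-07, without FA and -1.46 ± 0.0962, adjusted p = 4.26e-07, with FA (± SE here and for every change below). LARS, the leucine enzyme (hg19 chr5:145492589-145562294), had 19.5, 18.3 and 22.4 FPKM in U937 -FA OTX, against 61.2, 56.2 and 72.6 FPKM in U937 -FA DMSO. In U937 +FA, LARS had 23.5, 28.1 and 28.9 FPKM under OTX, against 75.8, 65.1 and 61.6 FPKM under DMSO. The LARS groups did not overlap in either medium, and the log2 changes were -1.61 ± 0.123, adjusted p = 1.03e-06, without FA and -1.30 ± 0.123, adjusted p = 5.79e-06, with FA.

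IARS, the isoleucine enzyme, had 28.3, 27.8 and 31.9 FPKM in U937 -FA OTX, against 86.6, 78.4 and 93.0 FPKM in U937 -FA DMSO, a log2 change of -1.52 ± 0.127, adjusted p = 1.99e-06. In U937 +FA, IARS had 36.2, 43.6 and 46.0 FPKM under OTX, against 114, 88.3 and 85.0 FPKM under DMSO, a log2 change of -1.17 ± 0.127, adjusted p = 1.57e-05. Its groups did not overlap in either medium. AARS, the alanine enzyme, was the other leader without FA, at 29.4, 27.0 and 28.6 FPKM under OTX, against 58.9, 53.3 and 65.1 FPKM under DMSO (-1.03 ± 0.0874, adjusted p = 2.16e-06). The tyrosine enzyme YARS was the other leader with FA, at 62.9, 61.1 and 56.8 FPKM under OTX, against 134, 136 and 139 FPKM under DMSO (-1.17 ± 0.0748, adjusted p = 3.77e-07). All OTX libraries lay below all DMSO libraries for both genes. YARS shares its locus in the tables with S100PBP, and IARS with MIR3651 and SNORA84. Strand use in the authors' counting is not stated, so reads of overlapping genes cannot be told apart.

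The enzymes that serve both compartments fell too. GARS had 69.4, 73.7 and 71.2 FPKM in U937 -FA OTX, against 122, 115 and 119.8 FPKM in U937 -FA DMSO (-0.73 ± 0.0687, adjusted p = 4.78e-06), and fell with FA as well (-0.91 ± 0.0687, adjusted p = 1.11e-06). KARS, the lysine enzyme, had 59.2, 59.7 and 57.5 FPKM in U937 -FA OTX, against 97.8, 96.9 and 105 FPKM in U937 -FA DMSO (-0.75 ± 0.0665, adjusted p = 2.88e-06), and changed by nearly the same amount with FA (-0.76 ± 0.0665, adjusted p = 3.02e-06). GARS and KARS libraries under OTX were tightly grouped and below every DMSO library in both media. Of the 20 cytosolic genes, HARS, RARS and SARS were called in neither U937 table. The serine enzyme SARS had 52.6, 50.8 and 53.5 FPKM in U937 -FA OTX, against 57.4, 51.8 and 66.6 FPKM in U937 -FA DMSO, and the groups overlapped.

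Among the mitochondrial enzymes of U937, those for phenylalanine, leucine, glutamate and tyrosine led. FARS2 had 3.78, 4.17 and 4.21 FPKM in U937 -FA OTX, against 11.1, 10.8 and 12.6 FPKM in U937 -FA DMSO (-1.31 ± 0.0909, adjusted p = 5.24e-07). EARS2 had 6.08, 6.10 and 6.04 FPKM in U937 -FA OTX, against 13.8, 13.7 and 13.6 FPKM in U937 -FA DMSO (-1.06 ± 0.0565, adjusted p = 9.14e-08), with nearly equal libraries within each group. LARS2 had 6.22, 5.79 and 6.22 FPKM in U937 -FA OTX, against 15.9, 13.1 and 18.2 FPKM in U937 -FA DMSO (-1.23 ± 0.124, adjusted p = 7.43e-06). Each of the 3 had separate groups. With FA the leaders were YARS2, at 5.69, 4.92 and 4.62 FPKM under OTX, against 11.9, 14.4 and 13.8 FPKM under DMSO (-1.24 ± 0.125, adjusted p = 8.92e-06), then EARS2 (-1.10 ± 0.0565, adjusted p = 8.33e-08) and FARS2 (-0.92 ± 0.0909, adjusted p = 7.65e-06). All 3 again had OTX libraries below all DMSO libraries. LARS2 shares its locus with the antisense gene LARS2-AS1.

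RARS2, the mitochondrial arginine enzyme, was the only synthetase to rise in U937, and it passed the test without FA and not with FA. It had 11.8, 13.9 and 12.9 FPKM in U937 -FA OTX, against 8.81, 9.75 and 5.35 FPKM in U937 -FA DMSO (0.66 ± 0.177, adjusted p = 0.00712). In U937 +FA, RARS2 had 10.6, 9.88 and 7.64 FPKM under OTX, against 8.82, 10.5 and 8.95 FPKM under DMSO, and the groups overlapped (-0.01 ± 0.177, adjusted p = 0.951). The lowest DMSO value, in column 2, came from the library that correlated least with its group. The test of the difference between the media did not reach the threshold for RARS2 (difference of log2 changes 0.68 ± 0.250, adjusted p = 0.0947). Without that library the change of RARS2 in U937 -FA was 0.43 (adjusted p = 0.0129), and 30 synthetases rather than 29 were called.

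**Figure D2:**
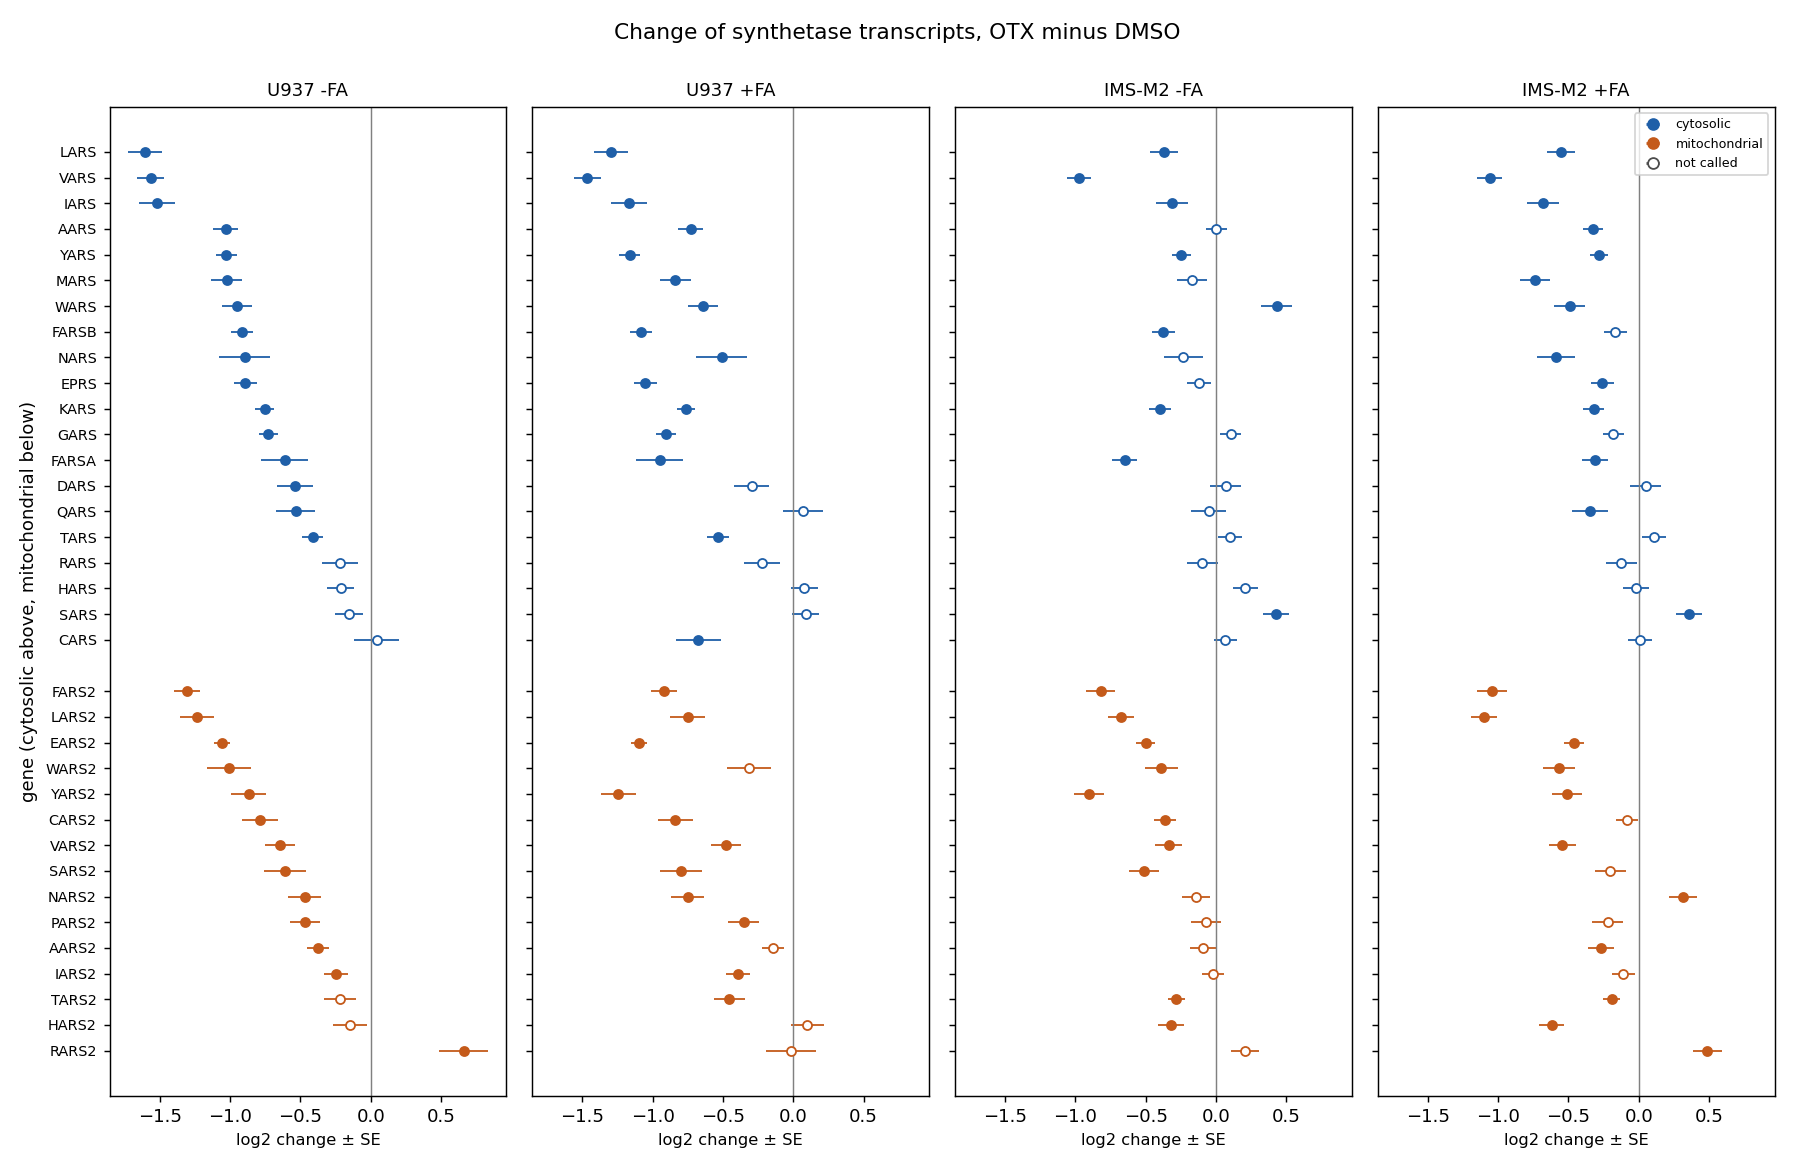
Log2 change (OTX minus DMSO, ± SE) of each synthetase in the 4 tables, with cytosolic genes in blue above mitochondrial genes in orange; filled points were called at an adjusted p below 0.05 and open points were not. Most points in the U937 panels lie left of 0, with LARS at -1.61 lowest without FA, while several cytosolic points in IMS-M2 -FA lie at or above 0.

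In IMS-M2 the median change was nearer 0, and a few genes rose. In IMS-M2 -FA, 7 of 20 cytosolic genes fell and 2 rose, and 10 of 15 mitochondrial genes fell and none rose. Together 19 of 35 were called, close to the 57.5% of all 11223 genes tested that were called (27.5% higher, 30.0% lower). In IMS-M2 +FA, 12 cytosolic genes fell and 1 rose, and 9 mitochondrial genes fell and 2 rose. Of all genes there, 63.2% were called, 29.8% higher and 33.4% lower. The median log2 change was -0.11 for cytosolic, -0.34 for mitochondrial and -0.01 for all genes without FA, and -0.30, -0.27 and -0.03 with FA. Without FA all OTX libraries lay below all DMSO libraries for 9 cytosolic and 10 mitochondrial genes and above them for 4 cytosolic and 1 mitochondrial gene, while of all genes 35.0% lay below and 33.1% above (68.1% in either direction). With FA they lay below for 12 cytosolic and 10 mitochondrial genes and above for 1 cytosolic and 2 mitochondrial genes, while of all genes 33.8% lay below and 30.4% above (64.2% in either direction).

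In IMS-M2, VARS fell by the largest amount among the cytosolic enzymes in both media. It had 46.7, 43.4 and 49.9 FPKM in IMS-M2 -FA OTX, against 96.4, 89.8 and 92.1 FPKM in IMS-M2 -FA DMSO (-0.98 ± 0.0865, adjusted p = 1.02e-06). In IMS-M2 +FA, VARS had 51.7, 43.6 and 50.1 FPKM under OTX, against 109, 94.9 and 102 FPKM under DMSO (-1.06 ± 0.0865, adjusted p = 4.03e-07). The groups were well apart in both media. Without FA the next were both subunits of the phenylalanine enzyme and KARS: FARSA changed by -0.65 ± 0.0904, adjusted p = 5.43e-05, FARSB by -0.38 ± 0.0810, adjusted p = 0.00161 and KARS by -0.40 ± 0.0774, adjusted p = 0.00076. With FA the next were MARS for methionine (-0.74 ± 0.105, adjusted p = 5.55e-05), IARS (-0.68 ± 0.113, adjusted p = 0.000197) and NARS for asparagine (-0.59 ± 0.137, adjusted p = 0.00237), with KARS at -0.32 ± 0.0774, adjusted p = 0.00299. Each of these changes had all OTX libraries below all DMSO libraries. GARS missed the threshold in both media (0.10 ± 0.0742, adjusted p = 0.247, without FA and -0.18 ± 0.0742, adjusted p = 0.0504, with FA), although its OTX libraries lay all above the DMSO libraries without FA and all below them with FA.

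SARS rose in IMS-M2 in both media. It had 70.0, 64.8 and 68.8 FPKM in IMS-M2 -FA OTX, against 52.7, 47.0 and 51.3 FPKM in IMS-M2 -FA DMSO (0.43 ± 0.0917, adjusted p = 0.00162). In IMS-M2 +FA, SARS had 63.2, 61.6 and 65.2 FPKM under OTX, against 42.4, 51.0 and 55.0 FPKM under DMSO (0.36 ± 0.0917, adjusted p = 0.00444). All OTX libraries lay above all DMSO libraries each time. WARS, the tryptophan enzyme, rose without FA and fell with it, as described with the folic acid comparison.

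The mitochondrial enzymes of IMS-M2 were led by FARS2, LARS2 and YARS2. YARS2 had 9.79, 11.1 and 9.25 FPKM in IMS-M2 -FA OTX, against 20.8, 19.3 and 18.7 FPKM in IMS-M2 -FA DMSO (-0.90 ± 0.107, adjusted p = 1.4e-05). FARS2 had 6.31, 5.55 and 6.33 FPKM in IMS-M2 -FA OTX, against 12.4, 9.75 and 12.4 FPKM in IMS-M2 -FA DMSO (-0.82 ± 0.106, adjusted p = 2.88e-05), and LARS2 changed by -0.67 ± 0.0919, adjusted p = 4.66e-05 there. Their OTX libraries lay below all DMSO libraries. With FA, LARS2 had 9.04, 7.90 and 8.78 FPKM under OTX, against 17.2, 19.4 and 22.3 FPKM under DMSO (-1.10 ± 0.0919, adjusted p = 4.96e-07), followed by FARS2 (-1.04 ± 0.106, adjusted p = 2.92e-06) and the histidine enzyme HARS2 (-0.62 ± 0.0904, adjusted p = 7.09e-05). RARS2 rose with FA, at 12.6, 14.3 and 13.0 FPKM under OTX, against 9.32, 10.1 and 8.14 FPKM under DMSO (0.49 ± 0.102, adjusted p = 0.00116). The asparagine enzyme NARS2 rose with FA too, at 14.3, 15.4 and 13.3 FPKM under OTX, against 11.9, 12.7 and 9.50 FPKM under DMSO (0.32 ± 0.0981, adjusted p = 0.0134). The groups did not overlap for either gene. The NARS2 call was lost without OTX replicate 2 or without DMSO replicate 3, where its adjusted p reached 0.0598. HARS and HARS2 share a locus in the tables, and the counting is not stated to use strand, so reads from any overlap of these genes cannot be told apart.

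Summed over genes, the synthetase level under OTX was 57.4% of that under DMSO in U937 -FA for the cytosolic set and 67.3% for the mitochondrial set. The cytosolic sum was 935 ± 16.5 FPKM in U937 -FA OTX and 1629.8 ± 111 FPKM in U937 -FA DMSO, and 1094 ± 31.2 FPKM in U937 +FA OTX and 1783 ± 92.4 FPKM in U937 +FA DMSO (mean ± SD, n = 3 each). In IMS-M2 it was 1268 ± 9.63 FPKM under OTX and 1408 ± 29.4 FPKM under DMSO without FA, and 1190.2 ± 10.8 FPKM under OTX and 1504 ± 128 FPKM under DMSO with FA. No OTX library reached the DMSO range of its table. The mitochondrial sum under OTX was 66.7% of that under DMSO in U937 +FA, 79.1% in IMS-M2 -FA and 80.4% in IMS-M2 +FA, against 61.4%, 90.1% and 79.1% for the cytosolic sum in the same tables. The ratio of the cytosolic to the mitochondrial sum was 6.42 to 6.62 in IMS-M2 -FA OTX, against 5.55 to 5.82 in IMS-M2 -FA DMSO. It was 4.05 to 4.30 in U937 -FA OTX, against 4.33 to 5.80 in U937 -FA DMSO, so it lay higher under OTX in IMS-M2 -FA and lower under OTX in U937 -FA, with no test made of it. With FA the ratios overlapped in both lines, at 4.42 to 5.15 in U937 +FA OTX, against 5.08 to 5.24 in U937 +FA DMSO, and at 5.56 to 5.82 in IMS-M2 +FA OTX, against 5.25 to 6.30 in IMS-M2 +FA DMSO.

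**Figure D3:**
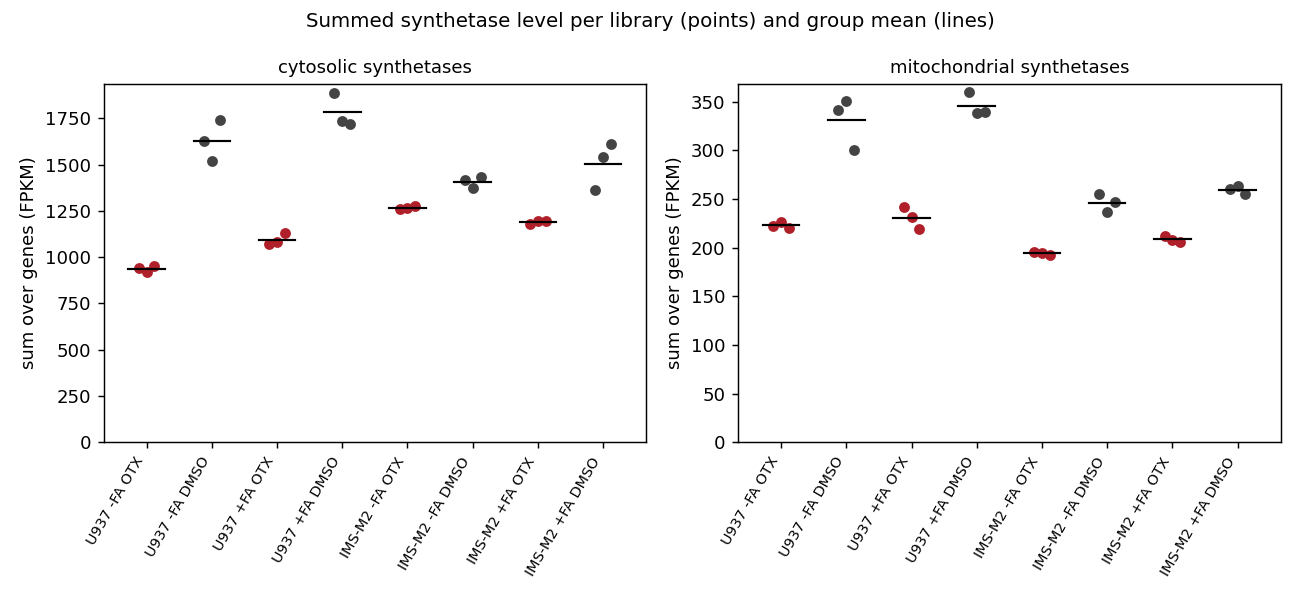
Sum of FPKM over the 20 cytosolic genes (left) and the 15 mitochondrial genes (right) in each library, with OTX in red and DMSO in grey, and the group mean as a line. In each table all 3 OTX points lie below the 3 DMSO points, and the gap for cytosolic genes is widest in U937, 935 against 1629.8 FPKM without FA.

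A core of 11 synthetases fell in all 4 tables. They were the cytosolic FARSA, IARS, KARS, LARS, VARS and YARS and the mitochondrial EARS2, FARS2, LARS2, VARS2 and YARS2. Among the 10220 genes tested in both lines, 11.8% were called lower in all 4 tables. The call of IARS in IMS-M2 -FA was lost without DMSO replicate 2 or 3 or without any single OTX replicate (adjusted p up to 0.116). Both tables of U937 had 14 cytosolic and 10 mitochondrial genes called lower, against 19.5% of all genes. Both tables of IMS-M2 had 6 cytosolic and 8 mitochondrial genes called lower, against 21.4% of all genes. HARS and RARS were called in none. GARS, TARS for threonine, IARS2 and PARS2 were called lower in both U937 tables and in neither IMS-M2 table, and the line comparison gives the test of that difference. With the column number as a block the call of IARS2 in U937 -FA was lost (adjusted p = 0.0640).

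The enzymes of the multisynthetase complex were counted beside the free ones. In U937 -FA, 7 of 8 complex enzymes fell (median log2 change -0.82), against 9 of 12 free cytosolic enzymes (median -0.81), while 31.7% of all genes were called lower. In U937 +FA, 5 of 8 complex enzymes fell (median -0.80), against 10 of 12 free enzymes (median -0.70) and 27.0% of all genes. In IMS-M2 -FA, 3 of 8 complex enzymes fell (median -0.15), and 4 of 12 free enzymes fell and 2 rose (median 0.03), while 30.0% of all genes were called lower. In IMS-M2 +FA, 6 of 8 complex enzymes fell (median -0.33), and 6 of 12 free enzymes fell and 1 rose (median -0.23), while 33.4% of all genes were called lower. Which of the sets had the larger share that fell thus varied among the tables. Of the 13 cytosolic genes known as ATF4 responsive, 11 fell in U937 -FA and 12 in U937 +FA, with medians of -0.95 and -0.84. Of the 7 other cytosolic genes 5 and 3 fell in those tables, with medians of -0.54 and -0.30. In IMS-M2 -FA, 4 of the 13 fell and 2 rose (median -0.12), against 3 of 7 others that fell (median -0.10). In IMS-M2 +FA, 9 of the 13 fell and 1 rose (median -0.33), against 3 of 7 others that fell (median -0.17). By structural class, 7 of 9 class I and 8 of 10 class II cytosolic genes fell in U937 -FA (medians -1.03 and -0.67). In U937 +FA, 7 of 9 and 7 of 10 fell (medians -0.84 and -0.63). In IMS-M2 -FA, 4 of 9 and 3 of 10 fell and 1 of each class rose (medians -0.17 and 0.04). In IMS-M2 +FA, 7 of 9 and 4 of 10 fell, and 1 of class II rose (medians -0.49 and -0.17). These lists were chosen with results known and are described without a test.

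For amino acids with 1 enzyme in each compartment, the estimated changes of the pair under OTX were put in order, with no test between them. Some gaps were small, as for HARS (0.08) and HARS2 (0.10) in U937 +FA. In U937 -FA the cytosolic gene had the lower log2 change in 9 of 12 pairs, with CARS, SARS and WARS as exceptions. In U937 +FA this held in 8 of 12. In IMS-M2 it held in 4 of 12 pairs without FA and 5 of 12 with FA. Leucine is an example chosen after its values were seen, and its change of order between lines was not tested. In U937 +FA, LARS changed by -1.30 ± 0.123 and LARS2 by -0.75 ± 0.124, while in IMS-M2 +FA, LARS changed by -0.55 ± 0.0990 and LARS2 by -1.10 ± 0.0919.

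The next comparison asked whether OTX acted differently on synthetases in U937 and in IMS-M2, by taking the OTX change of IMS-M2 from that of U937 in a fit of all 24 libraries. Without FA, 16 of 20 cytosolic genes had a more negative change in U937, as had 6 of 15 mitochondrial genes, and none had a higher one. Of all 12197 genes tested, 43.0% were called, 21.5% higher and 21.5% lower. With FA, 12 cytosolic and 6 mitochondrial genes were lower and 1, HARS2, was higher, while 50.6% of all genes were called, 27.7% higher and 22.9% lower. The median difference of log2 changes was -0.60 for cytosolic, -0.31 for mitochondrial and -0.02 for all genes without FA, and -0.42, -0.26 and 0.04 with FA. These comparisons share their libraries with the OTX comparisons above.

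Without FA the largest differences were all cytosolic. WARS differed by -1.38 ± 0.156, adjusted p = 5.84e-07, with a change of -0.95 in U937 and 0.43 in IMS-M2. LARS differed by -1.24 ± 0.160, adjusted p = 3.5e-06, with -1.61 in U937 and -0.37 in IMS-M2. IARS differed by -1.20 ± 0.175, adjusted p = 1.42e-05, with -1.52 in U937 and -0.32 in IMS-M2. All 3 are class I enzymes. AARS differed by -1.04 ± 0.107, adjusted p = 1.54e-07, with -1.03 in U937 and 0.00 in IMS-M2. MARS differed by -0.86 ± 0.154, adjusted p = 0.000156 and GARS by -0.83 ± 0.0877, adjusted p = 2.16e-07, and both fell in U937 and were not called in IMS-M2 without FA.

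With FA the order was another. NARS2 differed most, by -1.07 ± 0.155, adjusted p = 1.21e-05, with a change of -0.75 in U937 and 0.32 in IMS-M2. FARSB differed by -0.92 ± 0.103, adjusted p = 4.43e-07, YARS by -0.88 ± 0.0859, adjusted p = 6.01e-08 and EPRS by -0.80 ± 0.111, adjusted p = 7.59e-06. These 3 fell by more than 1 log2 unit in U937 +FA. CARS2 differed by -0.75 ± 0.148, adjusted p = 0.000326 and LARS by -0.75 ± 0.160, adjusted p = 0.000733. HARS2, lower in IMS-M2 alone, differed by 0.72 ± 0.151, adjusted p = 0.000619. Of the 4 genes called lower in U937 alone, GARS and TARS differed between lines in both media (-0.51 ± 0.107, adjusted p = 0.0007, for TARS without FA and -0.65 ± 0.107, adjusted p = 5.25e-05, with FA). IARS2 passed with FA (-0.29 ± 0.111, adjusted p = 0.037) and not without it (-0.23 ± 0.111, adjusted p = 0.107), and its call with FA was lost without IMS-M2 DMSO replicate 1 or 3, IMS-M2 OTX replicate 2, U937 DMSO replicate 1 or 2, or U937 OTX replicate 1 or 3 (adjusted p up to 0.104). PARS2 stood at the threshold without FA (-0.40 ± 0.158, adjusted p = 0.0499), where 13 of 17 alternatives took it past 0.05, and did not pass with FA (-0.13 ± 0.158, adjusted p = 0.502).

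**Figure D4:**
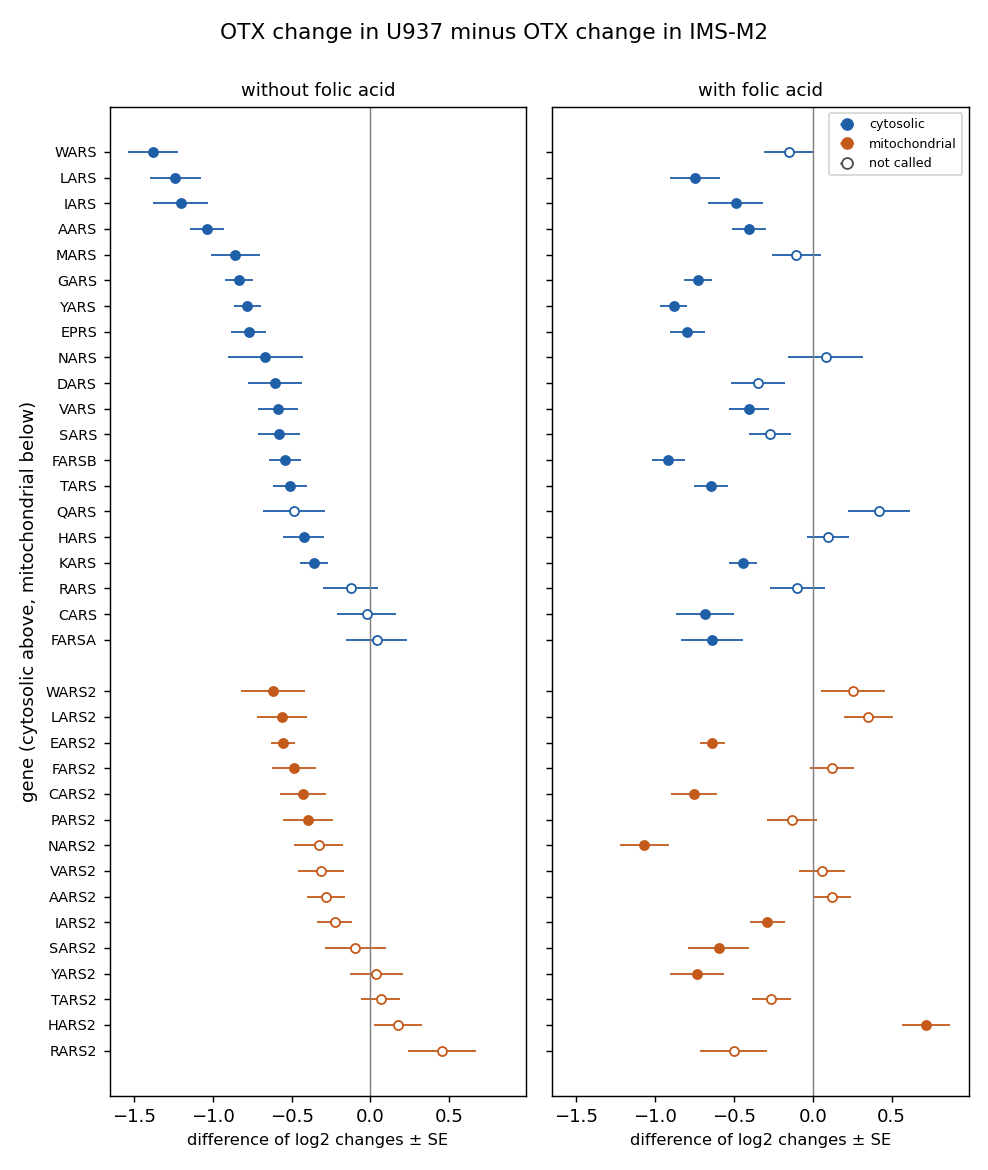
Log2 change under OTX in U937 minus that in IMS-M2 (± SE) for each synthetase, without FA (left) and with FA (right), with cytosolic genes in blue above mitochondrial genes in orange; filled points were called. Most cytosolic points lie left of 0 in both panels, from WARS at -1.38 without FA, whereas HARS2 lies at 0.72 with FA.

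The last comparison asked whether folic acid changed the effect of OTX, as the change without FA minus the change with FA in the fit of a line. In IMS-M2, 2 of 35 synthetases passed, WARS and MARS, both with a higher change without FA. This share is near that of all genes, of which 6.94% passed, 3.33% higher and 3.61% lower, and the same 12 libraries were used as in the OTX comparisons. At an unadjusted p below 0.05 there were 11 of 35 synthetases, 7 higher and 4 lower, against 30.1% of all genes. WARS (hg19 chr14:100800125-100842680) had 76.8, 77.1 and 79.1 FPKM in IMS-M2 -FA OTX, against 54.9, 56.8 and 60.4 FPKM in IMS-M2 -FA DMSO (0.43 ± 0.111, adjusted p = 0.00511). With FA it had 41.5, 41.4 and 44.7 FPKM under OTX, against 48.3, 64.5 and 69.6 FPKM under DMSO (-0.49 ± 0.111, adjusted p = 0.00193). The groups were separate in both media and their order was opposite, with OTX above DMSO without FA and below it with FA. The difference of log2 changes was 0.92 ± 0.157, adjusted p = 0.0124, and it stayed called under all 17 alternatives tried. Without DMSO replicate 1 of IMS-M2 +FA 13 synthetases passed, as did 30.5% of all genes, and without any other single library 1 to 3 passed, against 0.731% to 11.2% of all genes.

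MARS (hg19 chr12:57881736-57914300) had 77.8, 69.7 and 80.1 FPKM in IMS-M2 -FA OTX, against 84.3, 80.1 and 91.9 FPKM in IMS-M2 -FA DMSO (-0.17 ± 0.105, adjusted p = 0.184). In IMS-M2 +FA, MARS had 64.3, 59.8 and 71.4 FPKM under OTX, against 95.2, 110.4 and 123 FPKM under DMSO (-0.74 ± 0.105, adjusted p = 5.55e-05). The OTX libraries were below the DMSO libraries in both media, and the gap was wider with FA. The difference was 0.57 ± 0.148, adjusted p = 0.0414, and the call was lost under 11 of 17 alternatives, among them leaving out any single library but DMSO replicate 1 with FA or OTX replicate 2 without FA, with an adjusted p of up to 0.118. MARS shares its locus in the tables with DDIT3, a stress transcription factor whose own difference did not pass (0.28 ± 0.168, adjusted p = 0.278).

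Among the 7 genes of the amino acid response list, ASNS, CHAC1 and TRIB3 also had a higher change without FA in IMS-M2, and none had a lower one. ASNS had 163, 175 and 172 FPKM in IMS-M2 -FA OTX, against 48.0, 45.1 and 47.0 FPKM in IMS-M2 -FA DMSO (1.84 ± 0.119, adjusted p = 6.06e-08). In IMS-M2 +FA, ASNS had 70.4, 76.4 and 71.6 FPKM under OTX, against 37.6, 55.6 and 53.6 FPKM under DMSO (0.58 ± 0.119, adjusted p = 0.000966). ASNS under OTX was thus far above DMSO without FA and moderately above it with FA, a difference of 1.26 ± 0.169, adjusted p = 0.00332. CHAC1, which degrades glutathione, had 16.3, 15.0 and 18.1 FPKM in IMS-M2 -FA OTX, against 5.13, 4.51 and 5.41 FPKM in IMS-M2 -FA DMSO (1.54 ± 0.103, adjusted p = 8.19e-08). With FA it had 4.20, 3.64 and 4.93 FPKM under OTX, against 7.05, 6.09 and 6.26 FPKM under DMSO (-0.51 ± 0.103, adjusted p = 0.00086). Like WARS, CHAC1 lay above DMSO without FA and below it with FA, a difference of 2.05 ± 0.146, adjusted p = 4.94e-05. TRIB3, a pseudokinase induced by ATF4, fell in both media, and its difference was 0.56 ± 0.0985, adjusted p = 0.0134. The ATF4 transcript itself had 225, 228 and 248 FPKM in IMS-M2 -FA OTX, against 256, 232 and 247 FPKM in IMS-M2 -FA DMSO, with overlapping groups and a difference between media of -0.08 ± 0.104, adjusted p = 0.625.

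**Figure D5:**
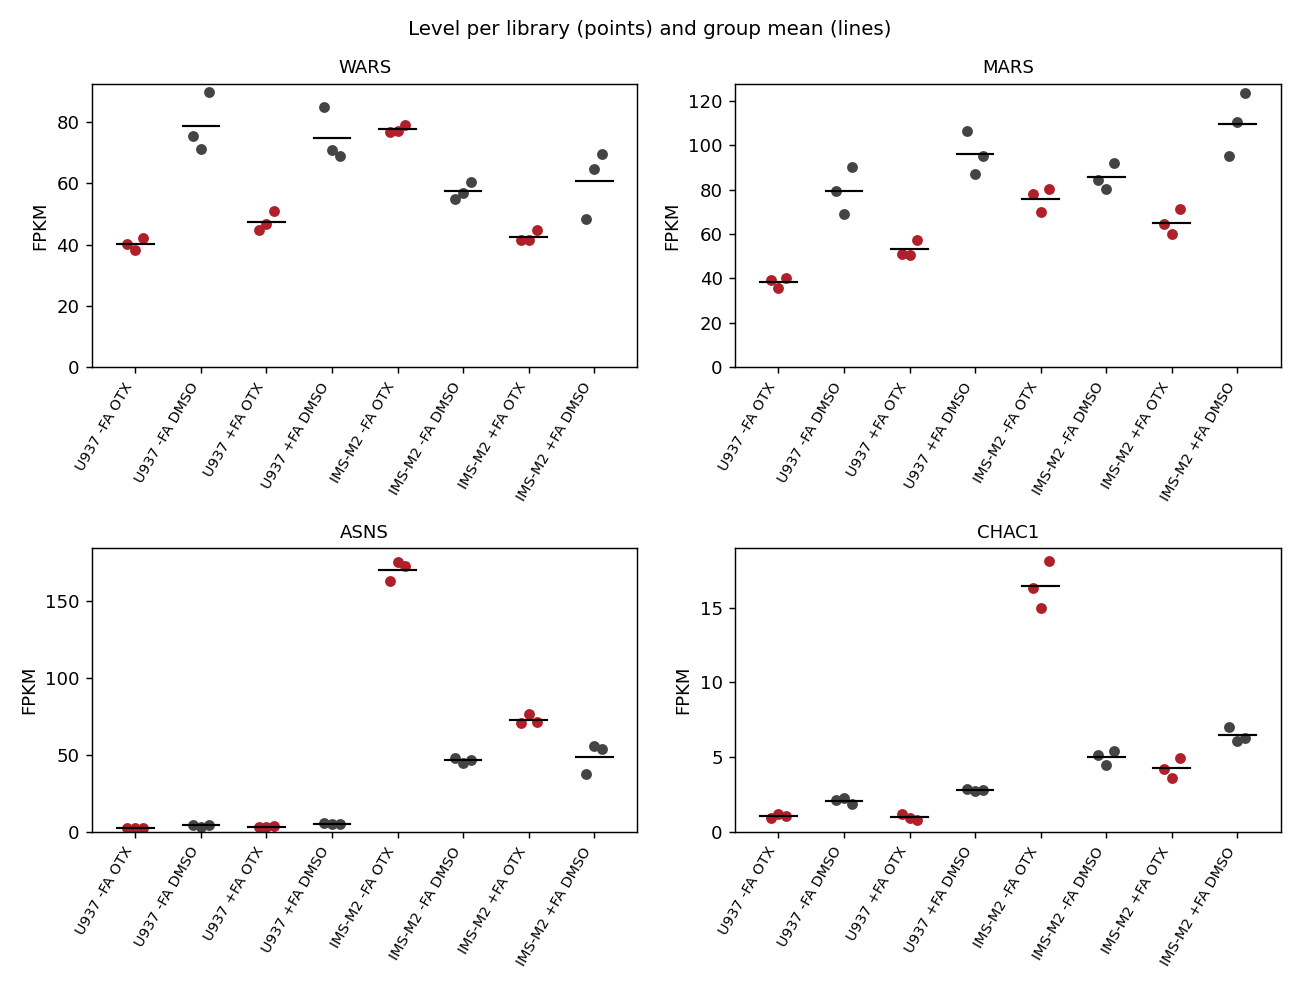
FPKM of WARS, MARS, ASNS and CHAC1 in each library of the 8 groups, with OTX in red, DMSO in grey and the group mean as a line. In IMS-M2 -FA the 3 OTX points of WARS, ASNS and CHAC1 lie above the DMSO points, for WARS at 76.8, 77.1 and 79.1 FPKM, while in U937 they lie below them.

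In U937 none of the 35 synthetases passed the folic acid comparison in limma, against 2.01% of all genes, 0.741% higher and 1.27% lower. With the library number within each table as a block, neither a synthetase nor any other gene passed in limma (0 of 11194 genes), and 9 synthetases and 32% of all genes had an unadjusted p below 0.05. At an unadjusted p below 0.05 there were 7 of 35, 2 higher and 5 lower, against 33.9% of all genes. The smallest adjusted p of a synthetase was 0.0704, for CARS (0.72 ± 0.227), a gene chosen after its values were seen. CARS had 22.3, 22.1 and 20.8 FPKM in U937 -FA OTX, against 23.5, 25.1 and 15.8 FPKM in U937 -FA DMSO, and 22.6, 20.2 and 16.7 FPKM in U937 +FA OTX, against 27.8, 34.5 and 34.1 FPKM in U937 +FA DMSO. Its groups overlapped without FA and were apart with FA. A p above the threshold does not show that the media acted alike. Without DMSO column 1 of U937 -FA 8 synthetases passed, as did 24.1% of all genes, and without DMSO replicate 1 of U937 +FA 5 passed, as did 19.5% of all genes. Without any other single library no synthetase passed.

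Levels without and with FA come from separate tables and are given with no test. Under OTX in U937, 18 of 20 cytosolic genes had a lower mean without FA than with it, with a median log2 ratio of -0.23, and 11 of 15 mitochondrial genes did, with a median of -0.10. Under DMSO in U937 these were 15 of 20 (median -0.12) and 8 of 15 (median -0.07). In IMS-M2 under OTX, 5 of 20 cytosolic genes were lower without FA (median 0.08), against 12 of 20 under DMSO (median -0.08). The mitochondrial genes of IMS-M2 were mostly lower, 11 of 15 under OTX (median -0.09) and 10 of 15 under DMSO (median -0.12). Of all 11194 genes tested in U937, 5589 were lower without FA under OTX and 4690 under DMSO. Of all 11223 tested in IMS-M2, 5690 were lower under OTX and 5973 under DMSO. Medians over all genes tested lay between -0.02 and 0.05. AARS had the lowest ratio of the cytosolic genes under OTX in U937, at 28.3 ± 1.21 FPKM without FA and 41.9 ± 1.95 FPKM with FA (SD, n = 3 each).

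The regulators known for these genes differed between lines under OTX. MYC had 23.2, 18.5 and 18.9 FPKM in U937 -FA OTX, against 182, 184 and 166 FPKM in U937 -FA DMSO (-3.08 ± 0.0939, adjusted p = 2.77e-09). In IMS-M2 -FA it had 117, 119 and 121 FPKM under OTX, against 186, 181 and 182 FPKM under DMSO (-0.62 ± 0.0661, adjusted p = 5.67e-06). It fell in both lines, by far more in U937 (line difference -2.46 ± 0.105, adjusted p = 3.4e-13). ATF4 had 87.7, 86.7 and 85.5 FPKM in U937 -FA OTX, against 193, 199.9 and 174 FPKM in U937 -FA DMSO (-1.11 ± 0.0773, adjusted p = 5.2e-07), while it was called in neither IMS-M2 table (line difference without FA -1.04 ± 0.0939, adjusted p = 2.17e-08). ASNS in U937 -FA had 2.94, 2.68 and 2.95 FPKM under OTX, against 4.82, 3.57 and 4.79 FPKM under DMSO (-0.48 ± 0.109, adjusted p = 0.00275), and its change differed from that of IMS-M2 by -2.32 ± 0.166, adjusted p = 7.53e-10. The part of MYC and ATF4 in the synthetase changes was not tested.

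Partners of the synthetases gave a mixed picture, and their counts stand beside shares of all genes called lower of 31.7% in U937 -FA, 27.0% in U937 +FA, 30.0% in IMS-M2 -FA and 33.4% in IMS-M2 +FA, or 11.8% in all 4 tables. All 3 scaffold proteins of the complex fell in U937 -FA, where the call of EEF1E1 was lost without DMSO column 0, DMSO column 1 or OTX column 0 (adjusted p up to 0.0949). AIMP2 fell in both U937 tables (-0.76 ± 0.0864, adjusted p = 1.95e-05, without FA and -0.67 ± 0.0864, adjusted p = 5.71e-05, with FA) and was called in neither IMS-M2 table. Of the 5 partners of mitochondrial charging, PET112 (also known as GATB) and QRSL1, subunits of the amidotransferase that makes glutaminyl tRNA, fell in all 4 tables. PET112 averaged 5.08 ± 0.197 FPKM in IMS-M2 +FA OTX, against 11.8 ± 0.1005 FPKM in IMS-M2 +FA DMSO (-1.07 ± 0.0835, adjusted p = 2.58e-07). In U937 +FA its mean was 3.88 ± 0.0769 FPKM under OTX, against 9.54 ± 0.229 FPKM under DMSO (SD of 3 libraries), a change of -1.11 ± 0.0902, adjusted p = 1.83e-06. The PET112 groups were apart in both lines, and the changes of the lines differed by -0.04 ± 0.119, adjusted p = 0.81. MTFMT, the enzyme that formylates the mitochondrial initiator tRNA with a folate cofactor, rose in 3 of the 4 tables (0.37 ± 0.0765, adjusted p = 0.00135, in U937 -FA, 0.33 ± 0.0767, adjusted p = 0.00251, in IMS-M2 -FA and 0.39 ± 0.0767, adjusted p = 0.000724, in IMS-M2 +FA).

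Of the 7 genes of tRNA maturation and export, 4 fell in U937 -FA and 5 in U937 +FA, against 4 in IMS-M2 -FA and 3, with 2 that rose, in IMS-M2 +FA. XPOT, the exportin that carries tRNA out of the nucleus, fell in all 4 tables and by more in U937 (-1.38 ± 0.125, adjusted p = 4.15e-06, in U937 +FA and -0.34 ± 0.108, adjusted p = 0.0148, in IMS-M2 +FA, with a line difference of -1.04 ± 0.170, adjusted p = 4.72e-05). Its call in IMS-M2 +FA was lost without DMSO replicate 2 or OTX replicate 3 (adjusted p up to 0.0653). SSB, the La protein that binds new tRNA transcripts, changed by 0.31 ± 0.166, adjusted p = 0.122, in U937 -FA and -0.82 ± 0.166, adjusted p = 0.00136, in U937 +FA, against -0.06 ± 0.162, adjusted p = 0.786, in IMS-M2 -FA and 0.84 ± 0.162, adjusted p = 0.000612, in IMS-M2 +FA. Of the 5 cytosolic elongation factors, 4 fell in U937 -FA and none rose, while in IMS-M2 -FA 1 fell and 2 rose. Several of these calls were not stable. In U937 -FA the call of EEF1A1 was lost under 7 of 12 alternatives (adjusted p up to 0.154). In IMS-M2 -FA the fall of EEF1G was lost under 6 of 12 (up to 0.123) and the rise of EEF1D under 4 of 12 (up to 0.0877). EEF2, which moves the ribosome along the message, had 1177, 1097 and 1119 FPKM in U937 -FA OTX, against 1711, 1652 and 1791 FPKM in U937 -FA DMSO (-0.60 ± 0.0877, adjusted p = 0.000124), and changed by 0.30 ± 0.0950, adjusted p = 0.0164, in IMS-M2 -FA. The call in IMS-M2 -FA was lost without DMSO replicate 2, OTX replicate 1 or OTX replicate 3 (adjusted p up to 0.0725). Of the 9 mitochondrial elongation and release factors 4 fell and 1 rose in U937 -FA, and 6 fell and 1 rose in IMS-M2 -FA. The recycling factor MRRF and the elongation factor TUFM fell in all 4 tables, TUFM to 138, 124 and 131 FPKM in U937 -FA OTX, against 312, 267 and 338 FPKM in U937 -FA DMSO (-1.21 ± 0.113, adjusted p = 4.41e-06). Of the 5 genes of proofreading and selenocysteine charging, AARSD1, which edits mischarged alanine tRNA, and DTD1, which removes D-amino acids from tRNA, fell in all 4 tables, with AARSD1 at -1.13 ± 0.0935 in U937 -FA and -0.79 ± 0.0895 in IMS-M2 -FA.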

How the data were processed

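Polyadenylated RNA was sequenced in 24 stranded libraries, per the labels' protocols. Per the submitters' processing notes, the tools were Cuffdiff (version 2.2.1), TopHat2 (version 2.1.1) and bcl2fastq (version 2.17.1.14), and the build was hg19. The authors deposited FPKM values per gene and library in 4 tables of 23595 genes; the unit was read from the values and the Cuffdiff layout, since the headers name none, and a normalization shared by the tables is not stated. No read counts were used, so depth is unknown and only the 3 libraries per group bound the precision. Because the labels do not say that replicates were separate cultures, p-values measure the spread between these samples, which may be technical.

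Values were taken as log2(FPKM + 1), genes with a group mean of at least 1 FPKM were kept, and limma 3.58.1 (R 4.3.3) was fitted with a trend over all genes, using the 12 libraries of a line or, between lines, all 24. All p-values are two-sided, adjusted over all genes tested by Benjamini-Hochberg. Levels were not tested across tables. Same-numbered OTX and DMSO columns of U937 -FA deviated from their group means together (correlations of 0.183 to 0.329). A fit with these column numbers as a block was therefore added after seeing the data. Values not said to come from a block, also those of U937 -FA, are from the fit without one, which ignores any such pairing. The text gives full statistics for the 4 cytosolic and 3 mitochondrial called genes of largest change in each direction and OTX comparison, for up to 6 in each difference, for the 3 highest and 3 lowest in level, and for KARS, GARS, ATF4 and MYC. Other genes were chosen after their values were seen. The members and lists were chosen with earlier results of these data known.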

Additional observations from a re-analysis of the deposited data

Results flagged for a closer look

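The effect of OTX differed between lines or media for the synthetases given here by a test of the difference itself (limma on log2 values, n = 3 libraries per group), and the values are given without an explanation. Taking the IMS-M2 change from the U937 change, the difference without FA was -1.38 ± 0.156, adjusted p = 5.84e-07, for WARS, -1.24 ± 0.160, adjusted p = 3.5e-06, for LARS and -1.20 ± 0.175, adjusted p = 1.42e-05, for IARS. AARS followed at -1.04 ± 0.107, adjusted p = 1.54e-07, MARS at -0.86 ± 0.154, adjusted p = 0.000156 and GARS at -0.83 ± 0.0877, adjusted p = 2.16e-07. With FA the same difference was -1.07 ± 0.155, adjusted p = 1.21e-05, for NARS2, -0.92 ± 0.103, adjusted p = 4.43e-07, for FARSB and -0.88 ± 0.0859, adjusted p = 6.01e-08, for YARS, then -0.80 ± 0.111, adjusted p = 7.59e-06, for EPRS, -0.75 ± 0.148, adjusted p = 0.000326, for CARS2 and -0.75 ± 0.160, adjusted p = 0.000733, for LARS. In IMS-M2 the change without FA minus the change with FA was 0.92 ± 0.157, adjusted p = 0.0124, for WARS and 0.57 ± 0.148, adjusted p = 0.0414, for MARS. For WARS every OTX library of IMS-M2 lay above every DMSO library without FA and below every DMSO library with FA, while in U937 the OTX libraries lay below in both media.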

How the results depend on the processing

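No called change of a synthetase reversed under any alternative: a pseudocount of 0.1, no filter on low values, rescaling to an equal median, no trend, single tables, a replicate block, or leaving out each library. The calls kept under all alternatives were 28 of 29 in U937 -FA, 24 of 26 in U937 +FA, 18 of 19 in IMS-M2 -FA, 19 of 24 in IMS-M2 +FA, 18 of 22 between lines without FA and 17 of 19 with FA. Leaving out single libraries gave 28 to 30 calls in U937 -FA, 24 to 25 in U937 +FA, 18 to 19 in IMS-M2 -FA, 20 to 26 in IMS-M2 +FA, 19 to 23 between lines without FA and 17 to 20 with FA. The folic acid differences were the least stable. In IMS-M2 the 2 calls became 1 with no filter and 6 with a replicate block, and single libraries left out gave 1 to 13, with 13 without IMS-M2 +FA DMSO replicate 1. In U937 the 0 calls ranged to 8 without single libraries (8 without U937 -FA DMSO column 1, 5 without U937 +FA DMSO replicate 1). The cause was not tested. Over all genes the IMS-M2 difference gave 779 calls, against 445 with no filter, 1920 with the block and 82 to 3429 without single libraries, and 48% of the calls were higher, against 60.4% with no filter. The U937 difference gave 225 calls, against 31 at a pseudocount of 0.1, 128 with no filter and 1 to 2704 without single libraries, and 36.9% were higher, against 12.9% at that pseudocount and 49.3% after rescaling. Among OTX comparisons the replicate block gave 24 calls in IMS-M2 +FA, 23 in IMS-M2 -FA and 25 in U937 +FA. Replicate numbers were checked for pairing: same-numbered OTX and DMSO libraries deviated from their group means with correlations of 0.0534 to 0.276 in IMS-M2 +FA, 0.0743 to 0.213 in IMS-M2 -FA and -0.335 to 0.128 in U937 +FA. Every library correlated best with its own number in IMS-M2 -FA, as in U937 -FA, and not in IMS-M2 +FA or U937 +FA. The numbers of IMS-M2 -FA may thus pair its libraries, which the labels do not settle. The main fit ignores such pairing and called 19 synthetases there, against 23 with the block. With the number within each table as a block and the U937 -FA columns taken by column number, an alternative added after seeing the data, 28 synthetases were called in U937 -FA, 0 in the U937 folic acid difference (0 of all genes), 25 between lines without FA and 21 with FA. IARS2 in U937 -FA was the one call this block ended among these comparisons.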
